A study of Rattus norvegicus with 6 samples.

Results

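Molecular chaperones of the heat shock families were compared between the ventral hippocampus of aged and adult rats. The genes were taken by symbol alone: every row for a heat shock protein or a protein named after one, every DnaJ protein of the A, B and C classes, and Bag1 to Bag6, with 2 matching rows set aside, which gave 78 genes of the 22601 in the table. Grouped by symbol, they comprised 3 Hsp90 genes, 13 genes of Hsp70 and its larger relative Hsp110 and 2 of the mitochondrial chaperonin. The rest were 7 genes with a small heat shock protein symbol, 2 Hsp binding protein genes, 45 DnaJ genes (4 Dnaja, 13 Dnajb and 28 Dnajc) and 6 Bag genes. RNA came from male Sprague Dawley rats, an outbred strain, aged 22 months (aged, 3 rats) or 4 months (adult, 3 rats). The rats were drawn at random from 10 of each age that had been through the Morris water maze, a test of spatial memory, and all 6 had that experience before tissue was taken. No treatment or allele was given for either age. The library totals lay between 12476758 and 15689921 counts, and the 78 genes together took between 0.881% and 1.00% of the counts in aged rats and between 0.863% and 0.893% in adult rats. Markers of hippocampal neurons were present in every library. The 10 oligodendrocyte markers summed to between 7021 and 9380 CPM in aged rats and between 11833 and 17862 CPM in adult rats, and adult replicate 1 stood apart with 2177 CPM of 10 choroid plexus markers, against 13.6 to 78.9 CPM in aged rats and at most 56.1 CPM in the other adult rats. Here CPM is a gene's count relative to the library size, scaled by edgeR's TMM method. The part of these cell types in the results was not tested.

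Hsp70 proteins bind exposed stretches of unfolded proteins in a cycle driven by ATP. DnaJ proteins (also called Hsp40) bring clients to Hsp70 and start its ATP hydrolysis through their J domain, and Bag proteins and Hsp110 release the nucleotide so that the cycle can begin again. Hsp90 finishes the folding of kinases and steroid receptors, and small heat shock proteins hold unfolded proteins without using ATP. Neurons use the same machinery at the synapse, where Hsc70 (Hspa8) strips clathrin from vesicles with auxilin (Dnajc6) and keeps release proteins folded with the cysteine string protein (Dnajc5). Under protein stress, the factor Hsf1 drives many of these genes from heat shock elements in their promoters, and the unfolded protein response drives those of the endoplasmic reticulum.

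Where a promoter could be matched, the letters of such elements were searched close to the start. RefSeq promoters of assembly GRCr8, from 250 bases before to 50 after the start given there, were matched by symbol to 63 of the 78 genes, and Bag6 had a pair of them, so 64 promoters were searched on both strands. The heat shock element was searched as GAA, 2 free bases, TTC, 2 free bases and GAA, and it stood in 5 of the 64 promoters (7.81%), against 0.798% of all 33469 promoters in that table and 0.516% of those of genes tested here. The shorter GAA, 2 free bases and TTC reads the same on both strands and lies inside every such match. It stood in 13 promoters (20.3%, against 8.59% of all and 5.73% of those of genes tested). The endoplasmic reticulum stress element, searched as CCAAT, 9 free bases and CCACG, stood in 3 promoters, those of Hspa5, Hsp90b1 and Dnajc3. Their share was 4.69%, against 0.0657% of all and 0.147% of those of genes tested. A match describes these letters and does not show that a factor binds there. Genes without a matched promoter were not searched, and the lack of a match does not show that an element is absent. Dnajb1 and Bag3, for example, held only the shorter letters. The stretches that hold these matches are printed with the matched bases in capitals, first the 5 with the heat shock element. Hspa8 lies at chr8:50080281-50080491 (+ strand), Dnaja1 at chr5:60638393-60638433 (+ strand) and Hsph1 at chr12:10427312-10427364 (+ strand). Hspd1 at chr9:64084242-64084287 (- strand) and Hspe1 at chr9:64084242-64084299 (+ strand) are transcribed away from each other, and the capitals in their stretches are the same bases read from opposite strands.
Hspa8: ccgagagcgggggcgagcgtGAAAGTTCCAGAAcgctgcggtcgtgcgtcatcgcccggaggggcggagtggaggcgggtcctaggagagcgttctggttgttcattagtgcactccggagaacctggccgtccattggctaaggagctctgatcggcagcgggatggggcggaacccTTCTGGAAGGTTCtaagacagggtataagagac
Dnaja1: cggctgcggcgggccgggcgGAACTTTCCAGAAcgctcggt
Hsph1: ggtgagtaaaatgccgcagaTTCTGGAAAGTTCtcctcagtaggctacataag
Hspd1: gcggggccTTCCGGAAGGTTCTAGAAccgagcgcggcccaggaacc
Hspe1: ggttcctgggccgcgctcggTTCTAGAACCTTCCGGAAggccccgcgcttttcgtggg

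The stretches with the endoplasmic reticulum element lie at chr3:38452953-38453011 (+ strand) for Hspa5, chr7:23012327-23012489 (- strand) for Hsp90b1 and chr15:102432514-102432572 (+ strand) for Dnajc3. The match began at position -43 from the start in Hspa5, at -176 and again, on the other strand, at -72 in Hsp90b1, and at -133 in Dnajc3.
Hspa5: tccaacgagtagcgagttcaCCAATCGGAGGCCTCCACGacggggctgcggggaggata
Hsp90b1: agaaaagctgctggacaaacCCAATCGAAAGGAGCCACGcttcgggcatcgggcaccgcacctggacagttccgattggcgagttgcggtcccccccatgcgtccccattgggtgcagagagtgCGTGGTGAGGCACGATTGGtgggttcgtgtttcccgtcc
Dnajc3: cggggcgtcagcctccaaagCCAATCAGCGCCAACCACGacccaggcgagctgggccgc

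Constitutive chaperones of the cytosol dominated in both ages. In deposited FPKM, which divides by gene length so that genes can be compared, Hsp90ab1, the constitutive cytosolic Hsp90, averaged 846 ± 66.0 FPKM and Hspa8, the constitutive cytosolic Hsp70, 465 ± 64.5 FPKM (SD, n = 6 rats of both ages). Hspa5 (BiP) and Hsp90b1 (Grp94), the Hsp70 and Hsp90 of the endoplasmic reticulum, followed at 177 ± 16.7 and 177 ± 16.2 FPKM. Hspe1, the lid of the mitochondrial chaperonin, and Dnaja1, a major DnaJ partner of cytosolic Hsp70, stood at 166 ± 33.3 and 163 ± 12.6 FPKM. These last 4 genes did not differ from their neighbours in the order beyond the spread between rats. The stress-inducible Hsp70 gene Hspa1a stood at 0.810 ± 0.305 FPKM, and Hsp90aa1, the stress-inducible cytosolic Hsp90, at 18.3 ± 7.00 FPKM. Hspa1a has a near-identical copy, and Hsp90aa1 and Hspa8 belong to families with many similar sequences, so their counts are uncertain where the authors' counting could split reads.

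**Figure D1:**
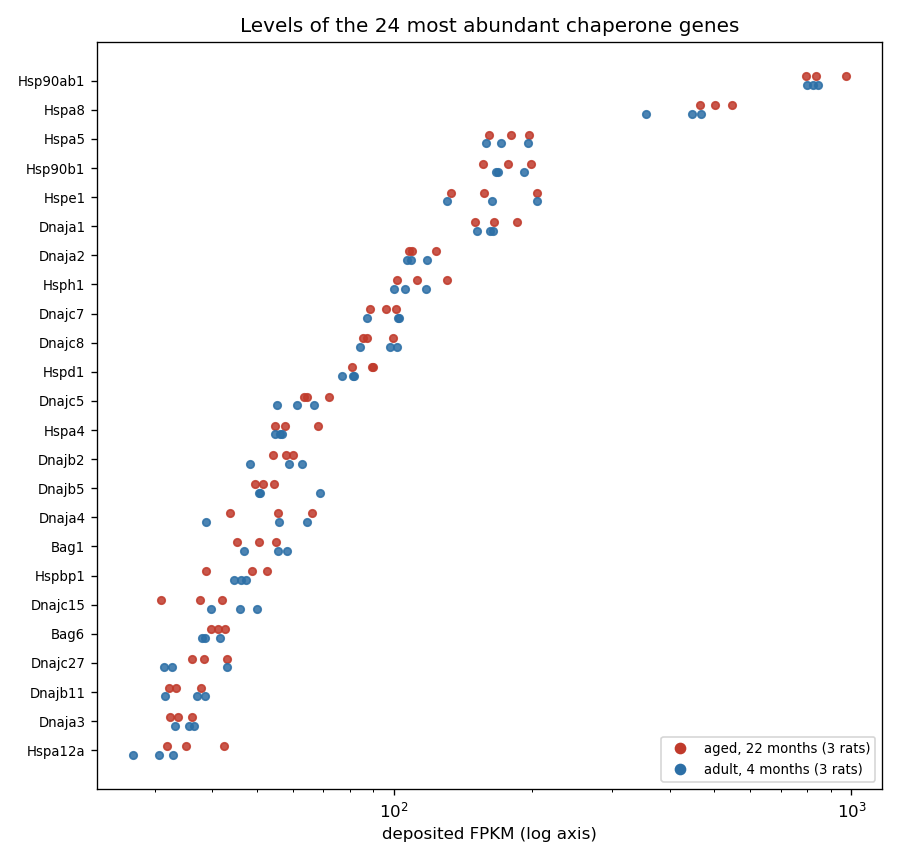
Deposited FPKM (log axis) of the 24 chaperone genes with the highest mean, with 1 point per rat, aged rats above adult rats in each row. Hsp90ab1 and Hspa8 stand above all others, and the aged and adult points of most genes overlap.

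No single chaperone gene was called different between aged and adult rats in the test across the whole table. Of the 78 genes, 72 had enough counts to be tested with edgeR's quasi-likelihood test, and 0 of them passed an adjusted p of 0.05 (Benjamini-Hochberg over 14588 genes, of which 0% passed). DESeq2 also called 0 of these 72 genes, while it called 31 of the 14588. At an unadjusted p under 0.05 there were 2 (2.78%), against 3.45% of all genes tested, and both were lower in aged rats (2.27% of all genes were lower and 1.18% higher at that p). Of the 72, 41 had a fold change above 0 (56.9%, against 49.4% of all genes) and 31 below 0 (43.1%, against 50.5%), and the median log2 fold change, aged minus adult, was 0.013, against -0.0022 over all genes. In 5 genes (6.94%, against 7.56% of all genes) the values of the 3 aged and 3 adult rats did not overlap, with 2 above in aged rats (3.13% of all genes) and 3 below (4.43% of all genes). A fold change of at least 1.5 was reached by 4 genes (5.56%, against 7.41%), all lower in aged rats (4.28% of all genes were lower and 3.13% higher by that much), which were Hspb7, Dnajb13, Hspa1a and Hspa1l. Hspa1a and Hspa1l overlap each other in the GRCr8 annotation and may share reads. These shares lie near those of all genes.

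The intervals bound how large a difference could have gone unseen. The 95% interval of the fold change lay within 2-fold either way in 62 of 72 genes (86.1%, against 75.9% of all genes) and within 1.5-fold in 45 (62.5%, against 49.9%). The chaperone genes were also somewhat higher in level, with a median of 39.0 CPM against 25.2 CPM over all genes, and their median SD between rats of one age was 0.184 against 0.227 on the log2 scale. Bag6, a chaperone of tail-anchored membrane proteins, varied least of the 72, between 207 and 224 CPM in aged rats and between 202 and 215 CPM in adult rats.

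**Figure D2:**
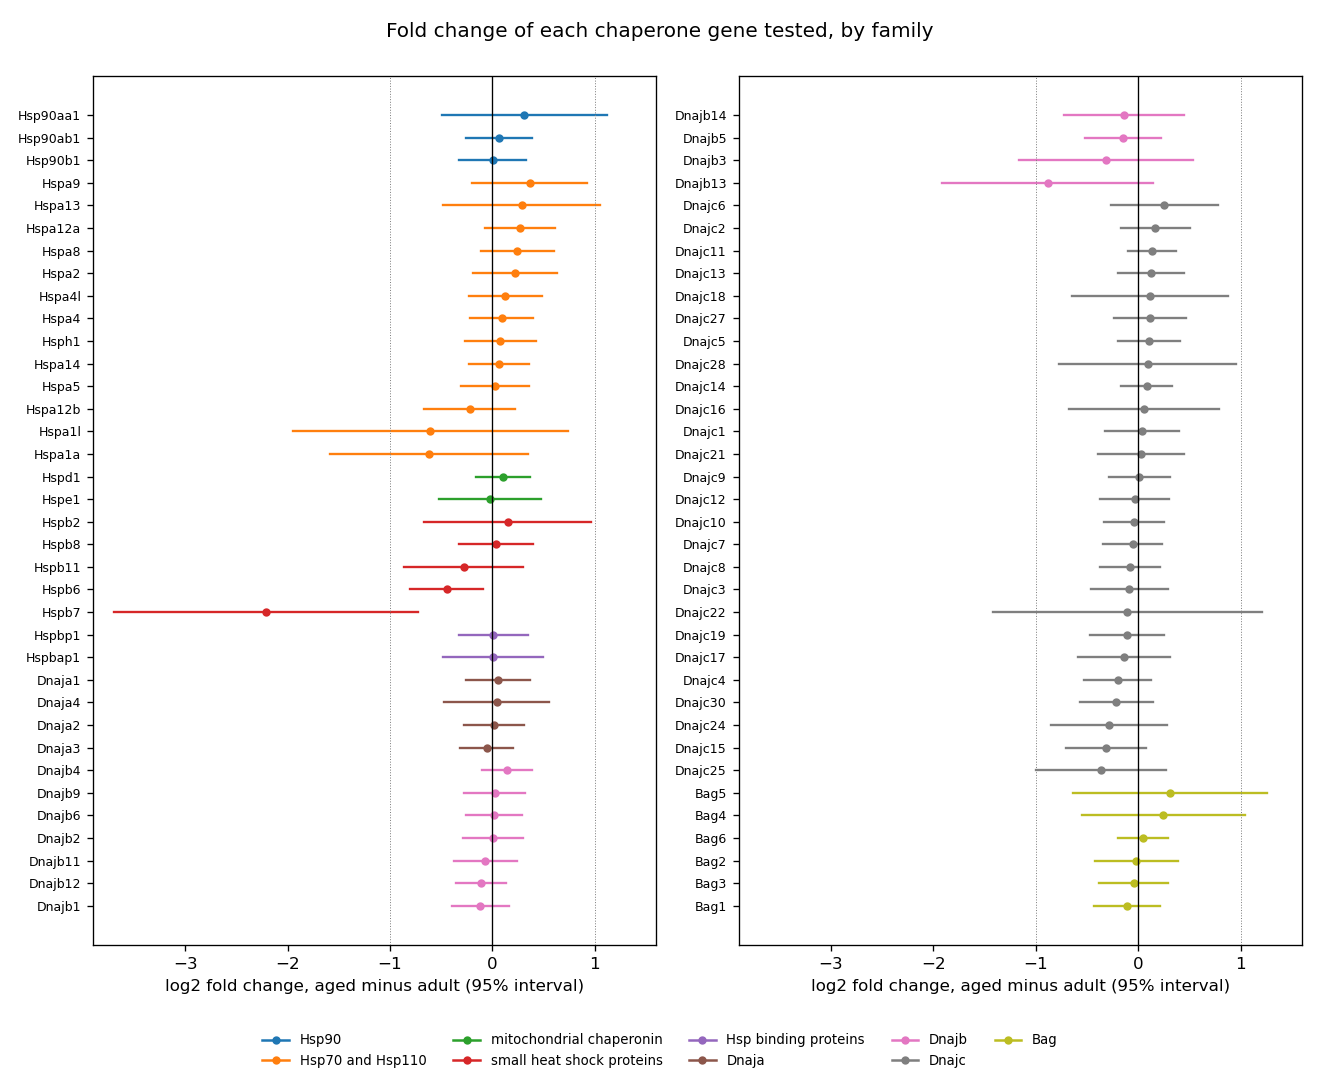
Log2 fold change of the 72 genes tested, aged minus adult, with 95% intervals from edgeR's quasi-likelihood fit, coloured by family, with dotted lines at 2-fold either way. The intervals of Hspb6 and Hspb7 leave out 0 and those of all other genes include it.

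None of the Hsp90 and Hsp70 genes was called different between the ages. Hsp90ab1 had 2324, 1963 and 1794 CPM in aged replicates 1 to 3, against 1864, 1959 and 1984 CPM in adult replicates 1 to 3. Its aged values lie on both sides of the adult ones, with a log2 fold change of 0.07 ± 0.14 (SE) and an interval of -0.25 to 0.39. Hspa8 had 1177, 1060.4 and 942 CPM in aged rats, against 747, 974 and 965 CPM in adult rats. Aged replicate 3 lay below adult replicates 2 and 3, so the groups overlap, and the log2 fold change was 0.24 ± 0.16 with an edgeR adjusted p of 1.00. Of 13 genes of Hsp70 and Hsp110, 10 had values above 0 (49.4% of all genes did), with a median of 0.0889 that came down to 0.0182 with 1 library left out, and 0 were at an unadjusted p under 0.05. Hspa1a, Hspa1l and Hspa12b were the 3 below 0. The mitochondrial Hsp70 gene Hspa9 had 132, 72.3 and 98.3 CPM in aged rats, against 62.9, 99.6 and 72.9 CPM in adult rats, with a log2 fold change of 0.36 ± 0.24. It was 0.14 without aged replicate 1, 0.56 without aged replicate 2 (edgeR unadjusted p = 0.0374) and 0.57 without adult replicate 2. Hspa12a, a distant Hsp70 relative, had 308, 227 and 239.5 CPM in aged rats, against 217, 231 and 196 CPM in adult rats. Aged replicate 1 was the highest library for all 4 of these genes.

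Chaperones that Hsf1 drives under stress overlapped between the ages, and Hspa1a was low in all 6 rats. Hspa1a had 1.26, 2.25 and 1.25 CPM in aged rats (19, 28 and 20 counts), against 2.73, 1.52 and 3.07 CPM in adult rats (40, 24 and 46 counts). The groups overlap through aged replicate 2 and adult replicate 2, and the log2 fold change was -0.62 ± 0.42 with an interval of -1.59 to 0.34. Dnajb1, an inducible DnaJ partner of Hsp70, had 64.0, 51.6 and 56.2 CPM in aged rats, against 58.7, 62.1 and 65.8 CPM in adult rats. Hsph1 (Hsp110) averaged 392 ± 60.7 CPM in aged rats and 371 ± 38.2 CPM in adult rats (SD, n = 3 each), and Bag3, which links Hsp70 to selective autophagy, averaged 23.8 ± 0.905 and 24.6 ± 3.27 CPM in aged and adult rats. Dnaja1, whose promoter holds the element, averaged 303 ± 40.0 CPM in aged rats and 292 ± 17.5 CPM in adult rats. Hsp90aa1 spread widely within each age, with 38.1, 57.0 and 74.2 CPM in aged rats, against 35.4, 29.9 and 71.0 CPM in adult rats. The log2 fold change was 0.31 ± 0.35 over all 6 rats and 0.06 when aged replicate 3 was left out. It was 0.80 when adult replicate 3 was left out, with an edgeR unadjusted p under 0.05.

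Hspa5, Hsp90b1, Dnajc3 and Dnajb9 of the endoplasmic reticulum and Hspd1 and Hspe1 of the mitochondria overlapped between the ages. Hspa5 averaged 459 ± 54.6 CPM in aged rats and 452 ± 49.8 CPM in adult rats, and Hsp90b1 averaged 497 ± 69.3 CPM in aged rats and 495 ± 36.9 CPM in adult rats. Dnajc3, a co-chaperone of BiP that also inhibits the kinase Perk, averaged 12.5 ± 1.25 and 13.3 ± 0.468 CPM in aged and adult rats, and Dnajb9, another BiP partner, averaged 31.5 ± 1.81 and 31.0 ± 2.95 CPM. Their intervals lay between -0.46 and 0.35 on the log2 scale. Hspd1 and Hspe1, which share the promoter region printed above, had different patterns over the libraries. The pair also overlap each other in the GRCr8 annotation and may share reads. Hspd1 had 213, 208 and 181 CPM in aged rats, against 189.7, 187 and 184 CPM in adult rats. Hspe1 had 91.1, 117 and 72.9 CPM in aged rats, against 117, 73.6 and 95.6 CPM in adult rats. Hspe1 was highest in aged replicate 2 and adult replicate 1, and Hspd1 in aged replicates 1 and 2.

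The DnaJ genes of the synapse also overlapped between the ages. Dnajc5 had 404, 355 and 337 CPM in aged rats, against 305, 365 and 348 CPM in adult rats, with a log2 fold change of 0.11 ± 0.13. Dnajc6 had 288, 161 and 222 CPM in aged rats, against 157, 226 and 179 CPM in adult rats, with a log2 fold change of 0.26 ± 0.23. It was 0.05 without aged replicate 1, 0.45 without aged replicate 2, 0.15 without adult replicate 1 and 0.41 without adult replicate 2. Both were highest in aged replicate 1 and lowest in adult replicate 1. Dnajb2 and Dnajb6, which hold back protein aggregates in neurons, averaged 183 ± 8.36 and 123 ± 7.96 CPM in aged rats and 182 ± 21.6 and 122 ± 10.8 CPM in adult rats. Dnajb5 averaged 152 ± 11.7 CPM in aged rats and 169 ± 34.3 CPM in adult rats, with 208 CPM in adult replicate 3. Of the 11 Dnajb genes tested 4 had values above 0 and 7 below (median -0.109), and of the 26 Dnajc genes 13 had values above and 13 below (median -0.0113). Dnajb4 and Dnajc11 stood higher in every aged rat and Dnajc30 lower, each named because its groups do not overlap. Dnajb4 had 80.9, 77.0 and 76.0 CPM in aged rats, against 75.7, 66.7 and 69.2 CPM in adult rats, and the edgeR adjusted p was 1.00 for all 3 genes. Dnajc11, which is tied to the inner membrane folds of mitochondria, had 74.8, 68.9 and 74.4 CPM in aged rats, against 63.9, 68.0 and 66.3 CPM in adult rats. Dnajc30, a mitochondrial J protein, had 14.8, 14.9 and 13.9 CPM in aged rats, against 15.1, 18.5 and 16.9 CPM in adult rats.

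Small heat shock proteins held both genes at an unadjusted p under 0.05. Hspb7, a small heat shock protein best known from heart and skeletal muscle, had 0.333, 0.0803 and 0.250 CPM in aged rats (5, 1 and 4 counts), against 0.683, 0.822 and 1.73 CPM in adult rats (10, 13 and 26 counts). Every aged rat lay below every adult rat, with a log2 fold change of -2.21 ± 0.64 and an edgeR adjusted p of 1.00. On the log2(FPKM + 1) scale, which shrinks the change of so low a gene, it was -0.495, and on log2(FPKM + 0.1) it was -1.61. Hspb6 (Hsp20), abundant in smooth and striated muscle, had 30.4, 36.0 and 26.2 CPM in aged rats, against 40.0, 39.1 and 46.9 CPM in adult rats. Its groups do not overlap either, with a log2 fold change of -0.45 ± 0.15 and an edgeR adjusted p of 1.00. Hspb6 overlaps Lin37 in the GRCr8 annotation, and reads shared by the pair could have gone to either gene. Hspb8, the partner of Bag3, averaged 23.9 ± 2.10 CPM in aged rats and 23.4 ± 3.28 CPM in adult rats. When adult replicate 3 was left out, the log2 fold change was -1.69 for Hspb7 and -0.35 for Hspb6. Hspb7 kept an unadjusted p under 0.05 with any 1 library left out, and Hspb6 lost it without aged replicate 1, aged replicate 3 or adult replicate 3 (0.061, 0.0677 and 0.0791 by edgeR).

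Markers of muscle and vessel wall had fold changes below 0 beside these genes, with 0 of them called by edgeR. At an unadjusted p under 0.05 and lower in aged rats were 5 of 14 skeletal muscle markers and 5 of 10 pericyte and smooth muscle markers, against 2.27% of all genes. The 14 skeletal muscle markers had fold changes below 0 in 14 of 14 (median log2 fold change -1.51), and their summed level ran from 67.5 to 201 CPM in aged rats and from 196 to 634 CPM in adult rats, with none at 0 throughout, so the sums overlap between the ages. Adult replicate 3, the highest for Hspb7 and Hspb6, was also the highest for these markers. The 10 pericyte and smooth muscle markers had fold changes below 0 in 10 of 10 (median -0.64), at 115 to 178 CPM summed in aged rats and 198 to 259 CPM in adult rats. Other lists also lay to one side of 0. The 10 oligodendrocyte markers were below 0 in 10 of 10 (median -0.74), with 8 at an unadjusted p under 0.05 by edgeR. The choroid plexus markers tested were below 0 in 7 of 7 (median -2.22), with 3 at that p. Liver markers were below 0 in 14 of 14 (median -1.13), summed 728 to 943 CPM in aged rats and 939 to 1434 CPM in adult rats. Tf made up most of that sum in every library. It had 684, 544 and 716 CPM in aged rats, against 899, 848 and 636 CPM in adult rats. Endothelial markers were below 0 in 9 of 9 (median -0.41), summed 316 to 408 CPM in aged rats and 391 to 530 CPM in adult rats. The 12 immediate early genes had fold changes above 0 in 12 of 12 (median 0.48). At an unadjusted p under 0.05 by edgeR and higher in aged rats were 6 of them, against 1.18% of all genes. Called by edgeR were 0 genes of these lists. The part of any of these in the values of Hspb6 and Hspb7 was not tested. In tissue RNA, fewer cells of a type and less RNA per cell cannot be told apart. Dnajb13, a protein of ciliary radial spokes in sperm and ependyma, had 18.4, 10.8 and 14.3 CPM in aged rats, against 13.9, 18.1 and 48.3 CPM in adult rats. The log2 fold change was -0.88 ± 0.45 over all 6 rats and -0.14 when adult replicate 3 was left out. DESeq2 gave Dnajb13 an unadjusted p of 0.0425. The 12 markers of ependyma and motile cilia summed to between 102 and 202 CPM in aged rats, and to 216, 89.1 and 125 CPM in adult replicates 1 to 3. Dnah9 was the largest single part of the sum in every library. It had 76.9, 65.6 and 143 CPM in aged rats, against 96.4, 56.4 and 92.5 CPM in adult rats. Ucp2, which lies next to Dnajb13 in the GRCr8 annotation and was looked up after these values were seen, had 66.4, 61.4 and 44.7 CPM in aged rats, against 59.1, 63.7 and 122 CPM in adult rats. The part of ependyma or of the neighbouring gene in the Dnajb13 values was not tested.

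**Figure D3:**
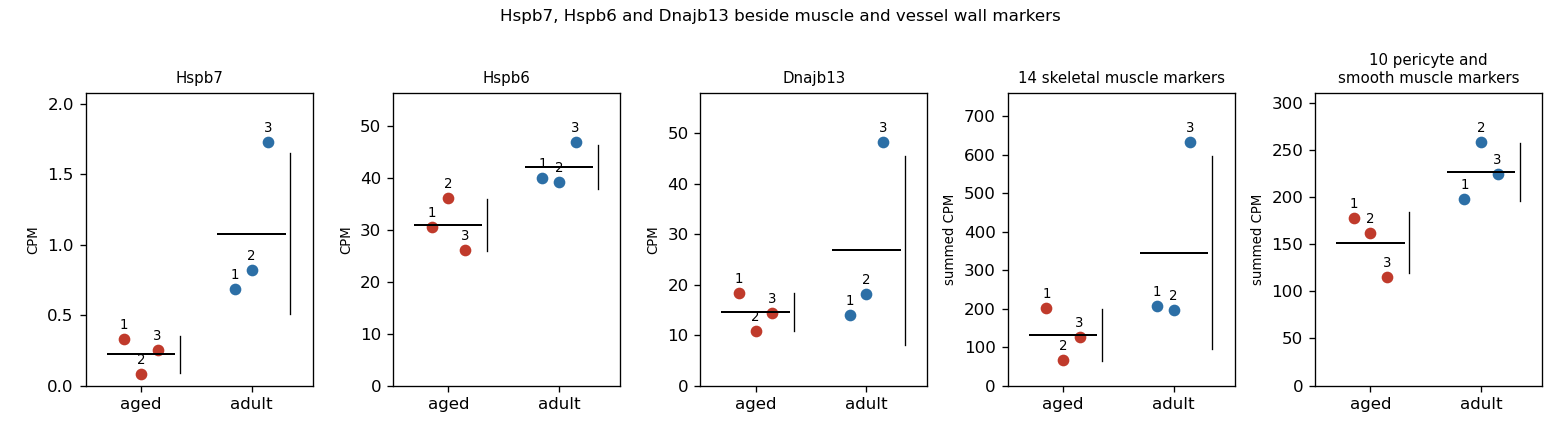
CPM of Hspb7, Hspb6 and Dnajb13 and summed CPM of 14 skeletal muscle markers and 10 pericyte and smooth muscle markers, with 1 numbered point per rat, bars for the mean and vertical lines for 1 SD (n = 3). Adult replicate 3 is the highest point for the 3 genes and for the skeletal muscle markers, and the aged points of Hspb7 and Hspb6 lie below all adult points.

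Co-chaperones and regulators outside these families were likewise not called. Hsf1 and Hsf2 had log2 fold changes of -0.02 and 0.01, and of 5 tested genes of the heat shock factor list 0 were called, with Hsf4 at an unadjusted p under 0.05. Hsf4, a heat shock factor best known from the lens, had 5.06, 5.86 and 4.76 CPM in aged rats, against 3.76, 3.67 and 2.33 CPM in adult rats, with a log2 fold change of 0.68 ± 0.29 (0.50 when adult replicate 3 was left out) and an edgeR adjusted p of 1.00. None of the Hsp90 co-chaperones (15 tested, 7 above 0 and 8 below, median -0.0158), Hsp70 partners (8 tested, median 0.0211), chaperonin and prefoldin subunits (14 tested, 9 above 0, median 0.0294) or endoplasmic reticulum folding genes (18 tested, 7 above 0 and 11 below, median -0.0468) was called or reached an unadjusted p under 0.05 by edgeR. Of 7 mitochondrial chaperones and proteases tested, 5 had values above 0 and 2 below (median 0.0451) and 0 were called. Among them Lonp1, the protease of the mitochondrial matrix, averaged 148 ± 6.49 CPM in aged rats and 126 ± 3.92 CPM in adult rats, with no overlap and a log2 fold change of 0.23 ± 0.10. Its edgeR unadjusted p was 0.0541 with TMM, 0.0484 with RLE scaling and 0.0433 with library totals, and its adjusted p was 1.00. The 3 other stress-induced chaperones on the list had values below 0 (median -0.178), and 0 were called. Serpinh1 (Hsp47), the collagen chaperone, had 64.0, 75.0 and 47.0 CPM in aged rats, against 90.6, 94.6 and 86.9 CPM in adult rats, with a log2 fold change of -0.55 ± 0.17 and an edgeR adjusted p of 1.00. The 10 meningeal fibroblast markers, which include collagen genes, summed to 92.6 to 183 CPM in aged rats and 249 to 406 CPM in adult rats. Of the 9 tested, 7 had fold changes below 0 and 2 above (median -0.47), and the 2 above were Dcn and Slc22a6. Dcn had 25.2, 62.9 and 23.2 CPM in aged rats, against 40.3, 29.3 and 12.5 CPM in adult rats. The part of these markers in Serpinh1 was not tested.

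The highest and lowest values of the chaperone genes were spread unevenly over the libraries. Aged replicate 1 held the highest value of 23 of the 72 genes (31.9%, against 16.1% of all genes) and adult replicate 3 that of 20 (27.8%, against 17.4%). Aged replicate 3 held the highest value of 2 genes (2.78%, against 16% of all genes) and the lowest of 20 (27.8%, against 18.2%). Some genes stood high in aged replicates 1 and 3 and adult replicate 2 together, named here for their wide spread. Among them Hspa13, an Hsp70 of microsomes, had 19.8, 9.16 and 13.8 CPM in aged rats, against 9.29, 16.5 and 9.33 CPM in adult rats. Bag4, which binds Hsp70 and TNF receptors, had 25.9, 10.4 and 19.0 CPM in aged rats, against 10.8, 20.3 and 15.6 CPM in adult rats. Dnajc16 had 19.5, 9.64 and 15.2 CPM in aged rats, against 10.6, 19.8 and 12.3 CPM in adult rats. Bag4 and Dnajc16 overlap other genes in the GRCr8 annotation. The 10 hippocampal neuron markers summed to 7362, 5220 and 5590 CPM in aged rats, against 5313, 5929 and 6368 CPM in adult rats. Snap25 was the largest single part of that sum in every library, and single markers differed in pattern. Camk2a and Gad2 stood highest in aged replicates 1 and 3 and adult replicate 2, and Snap25 and Neurod6 did not. Camk2a had 367, 149 and 305 CPM in aged rats, against 102, 395 and 203 CPM in adult rats. Neurod6 had 193, 110 and 122 CPM in aged rats, against 160, 129 and 182 CPM in adult rats. The part of neurons in the patterns of Hspa13, Bag4 and Dnajc16 was not tested.

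**Figure D4:**
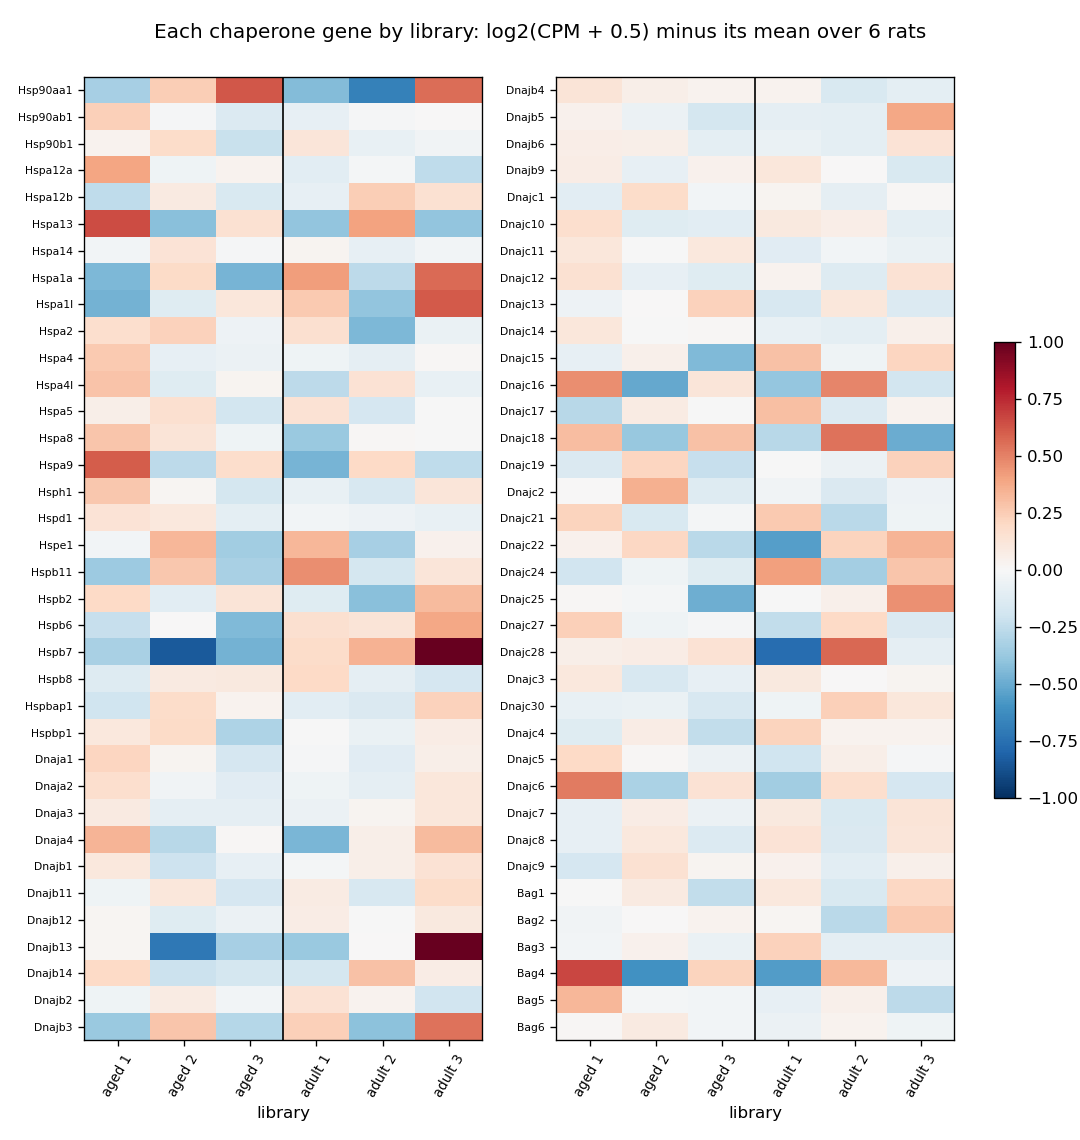
Each of the 72 genes tested by library, as log2(CPM + 0.5) minus the gene's mean over 6 rats, with the 3 aged rats left of the 3 adult rats. Aged replicate 1 holds the highest value of 23 genes and adult replicate 3 of 20, and colours past 1 either way are capped.

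The 6 genes with too few counts to be tested were Dnajb7, Dnajb8 and Dnajc5g, with 0 counts in every library, and Hspb3, Hspb9 and Dnajc5b. The highest count of the last 3 in any library was 4. A count of 0 allows up to 3 counts in a library, so low expression of these genes was not detectable at this depth, and these limits cover counting error only.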

How the data were processed

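Raw counts per gene symbol were deposited by the authors, with 1 column per rat and whole numbers throughout. FPKM values were deposited by the authors as well, scaled for gene length and library total. The genome build Rnor_6.0 is named, per the submitters' processing notes, while aligner, counting program and strand setting were not given in the sources used here. No batch is given in the labels.

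Counts were filtered with edgeR's filterByExpr, scaled by TMM and tested, aged minus adult, with edgeR's quasi-likelihood test (two-sided; edgeR 4.0.16, R 4.3.3), and p-values were adjusted by Benjamini-Hochberg over 14588 genes. The SE was derived from the F statistic, and intervals are 95%. Only the chaperone rows are printed. Alternatives used DESeq2 1.42.0, limma 3.58.1, other scalings and filters, a replicate block and each library left out. The model fits were tested on simulated counts. Promoters and overlaps come from RefSeq tables of GRCr8, and 77 of 78 genes matched by symbol and 1 by synonym. Protein sequences were not used here. Figures were drawn with matplotlib 3.10.9.

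The genes and lists were chosen with earlier results of these data known. Named are 28 genes listed at the outset (27 in the table), those at an unadjusted p under 0.05, the smallest p in each family, the 5 highest in FPKM and up to 2 genes of each pathway list, not all of which are printed. Others are said to be chosen by their values.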

Additional observations from a re-analysis of the deposited data

How the results depend on the processing

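The count of chaperone genes called stayed 0 under all 16 other settings, and 49 named genes were followed through them. Over all genes edgeR called 0, DESeq2 called 31, limma called 2 on log2(FPKM + 1) and 6 on log2(FPKM + 1) with no filter, and leaving out a library gave 0 to 1. Chaperone genes at an unadjusted p under 0.05 numbered 1 of 68 when 1 CPM or more was required in 3 libraries, which drops Hspb7 (3.4% of all genes). DESeq2 gave 3 of 72, adding Dnajb13 (3.4% of all genes). With log2(FPKM + 1) and no filter there were 4 of 78, adding Dnajb4 and Dnajc11 (3.78% of all genes). Leaving out a library gave 1 to 3 of 72 (2.73% to 5.22% of all genes). The genes added there were Hspa9 without aged replicate 2, Dnajb13 without adult replicate 1 and Hsp90aa1 without adult replicate 3. The median of the Bag genes was 0.0155, -0.0179 with the filter of 1 CPM, 0.0371 and 0.0397 with pseudocounts of 1 and 0.1 on FPKM, 0.0371 with no filter, and -0.0093 to 0.0884 when a library was left out. That of the small heat shock proteins, a family set by symbol with 5 genes tested, was -0.28, which is the value of Hspb11 (-0.28 ± 0.25). It ran from -0.51 to -0.0844 when a library was left out. The median of all 72 chaperone genes tested, again with a library left out, ran from -0.0251 to 0.0401, of Dnajb from -0.128 to -0.0482, of Dnajc from -0.029 to 0.0164 and of the Hsp70 genes from 0.0182 to 0.157. The cause of these shifts was not tested.

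Of 782 values of named genes under other settings, 31 (15 genes) had the opposite sign, and in all 31 both values lay within 1 SE of 0. With limma-voom these were Hsp90b1 (-0.0028) and Hspbp1 (-0.0072). With the replicate number as a block they were Hsp90b1 (-0.004) and Hspbp1 (-0.0055). The labels do not say that numbers pair the rats, and deviations of same-numbered rats correlated at -0.137, -0.106 and 0.062, so the block is a sensitivity value only. Under it 2 chaperone genes were at an unadjusted p under 0.05 (3.21% of all genes were) and 0 were called. When a library was left out, the sign turned for 15 genes, whose log2 fold changes ran for Hspa4 from -0.0129 to 0.1567, Hsp90ab1 from -0.0256 to 0.1471, Hspe1 from -0.2108 to 0.1578, Hsph1 from -0.0273 to 0.1788, Dnaja1 from -0.0291 to 0.1443, Hspbp1 from -0.0826 to 0.1465, Hspa5 from -0.0555 to 0.1146, Hsp90b1 from -0.0852 to 0.1068, Dnajb2 from -0.0788 to 0.092, Dnajb6 from -0.0272 to 0.0986, Hspb8 from -0.0326 to 0.1643, Bag3 from -0.0966 to 0.0837, Dnajb5 from -0.2315 to 0.0387, Dnajb9 from -0.0411 to 0.0988 and Hikeshi from -0.1642 to 0.0411. The 3 rats per age limit what these libraries can show, and p-values measure only the spread between them.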
